A study of Mus musculus with 4 samples.

Results

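The MHC class II genes described here are 9 genes of antigen presentation to CD4+ T cells, chosen by name from the 55335 genes of the deposited count tables. They are the antigen-binding chains H2-Aa, H2-Ab1 and H2-Eb1, the invariant chain Cd74, the peptide-loading chains H2-DMa and H2-DMb1, the transactivator Ciita, and the costimulatory ligands Cd80 and Cd86. Their levels were compared between 4 RNA-seq libraries of cells labelled CD4+ T cells from skin, all from mice aged 8 to 12 weeks with a psoriasis-like inflammation brought on by imiquimod. The back skin of every animal had received 5% imiquimod cream for 5 days, at 15 or 62.5 mg a day, and the labels do not say which animal received which amount. The 2 control libraries carry the genotype Mettl3fl/fl, in which both alleles of the m6A methyltransferase Mettl3 are floxed but no Cre is named. The 2 knockout libraries carry Mettl3fl/fl;Cd4-Cre, in which Cre is driven by the Cd4 promoter, active in developing T cells and thus not limited to CD4+ cells. Dermal cells were stained for CD45 and CD4, and the labels give neither the sorting gate nor the number of mice per library.

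Class II molecules carry peptides from ingested and membrane proteins to the surface of dendritic cells, Langerhans cells, macrophages and B cells, where CD4 and the T cell receptor of a helper T cell read them. The alpha and beta chains assemble in the endoplasmic reticulum around the invariant chain, which is cut down in lysosomes to a fragment that H2-DM exchanges for antigenic peptide. Ciita is the coactivator on which transcription of most of these genes depends, and Cd80 and Cd86 on the same presenting cells bind Cd28 and Ctla4 on T cells. Mouse T cells, unlike activated human T cells, make little or no class II of their own.

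Promoters of class II genes share an X box, bound by the RFX complex, and a Y box, bound by NF-Y, to which Ciita is recruited. Sequences of 3 members are shown because these boxes are what class II genes have in common outside the counts. They come from the set of RefSeq promoter sequences used here (GRCm38.p6), which held 5 of the 9 members (H2-Aa, H2-Eb1, H2-DMa, H2-DMb1 and Cd80). Both strands of the 250 bases before each start were searched for AACNGATG, the 3′ part of the X box, and for ATTGG, the Y box, both without mismatch. The capitals mark the matches on the gene's strand, and each sequence is read 5′ to 3′ on that strand.
H2-Eb1, chr17:34305747-34305846, plus strand: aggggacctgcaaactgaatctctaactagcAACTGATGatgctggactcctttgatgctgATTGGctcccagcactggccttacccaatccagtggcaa
H2-DMb1, chr17:34153088-34153117, plus strand: gtttacctagtAACTGATGatgctaggctg
H2-Aa, chr17:34287844-34287943, minus strand: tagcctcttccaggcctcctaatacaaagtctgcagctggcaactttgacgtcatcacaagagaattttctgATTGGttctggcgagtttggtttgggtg
The X box letters of H2-DMb1 began 92 bases before the start site, and 23 bases lay between them and its Y box. In H2-Eb1 they began 89 bases before the start, with 22 bases to the Y box, so both genes had nearly the same spacing. H2-Eb1 had 2 Y box matches, of which the other is on the opposite strand (ccaat in the printed sequence). H2-Aa had the Y box, 48 bases before the start, and not these X box letters. Cd80 had neither, and of the 2 start sites of H2-DMa the downstream held a Y box. For H2-DMb1 only 30 bases are printed, because GENCODE places this stretch in the first exon of the gene. Of 32851 promoter windows, 1.98% held the X box letters, 33.8% held the Y box, and 20 (0.0609%) held both in this order within 50 bases. Those 20 also took in the class II genes H2-Eb2 and H2-DMb2. A match describes letters only and was not tested as a binding site.

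The 4 libraries held between 3614418 and 4537006 counted fragments. Wherever values of the 4 libraries follow one another, they are in the order control 1, control 2, knockout 1, knockout 2. Mettl3 itself had 195, 49, 121 and 158 fragments. None lay in an exon entry of a protein-coding transcript, so these counts do not check the deletion. Control 2 stood apart before any member was considered: 4064 of the 12434 genes tested had no fragment there, against 221 to 860 in the other libraries. Its log2(CPM + 1) values correlated across genes with those of the others at Pearson r of 0.586 to 0.602, where the other pairs reached up to 0.863 and genes are not independent replicates. Results are therefore also given without it. Cd4, the marker of the labelled cells, had 777, 0, 420 and 9 fragments.

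What could be counted decides how each member can be read. Fragments were assigned to single exon entries of the annotation, and those touching more than 1 entry were left out. A counted fragment thus had to touch bases that lie in a single entry, here called countable. It could reach beyond them into bases of no entry. The countable bases came to 269 for Cd74, or 16.0% of its annotated exon bases, to 788 for H2-DMb1 and 809 for H2-Eb1. They came to 1279 for H2-DMa, 1405 for H2-Ab1 and 2532 to 4714 for Cd80, Cd86, H2-Aa and Ciita. For H2-Ab1, 99.1% of all fragments lay in entries of retained-intron transcripts, which are transcript models that keep an intron, and for Cd74 the share was 99.4%. For H2-Aa it was 73.4%, and for H2-Eb1 18.3%. In H2-DMa, H2-DMb1 and Ciita at least 98.9% of fragments lay in entries of protein-coding transcripts, in Cd80 100% did, and in Cd86 83.3%, with the rest of Cd86 in noncoding transcripts. The values of H2-Ab1, Cd74 and, in large part, H2-Aa thus come from bases that the annotation counts as exon only in transcripts with a retained intron.

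**Figure D1:**
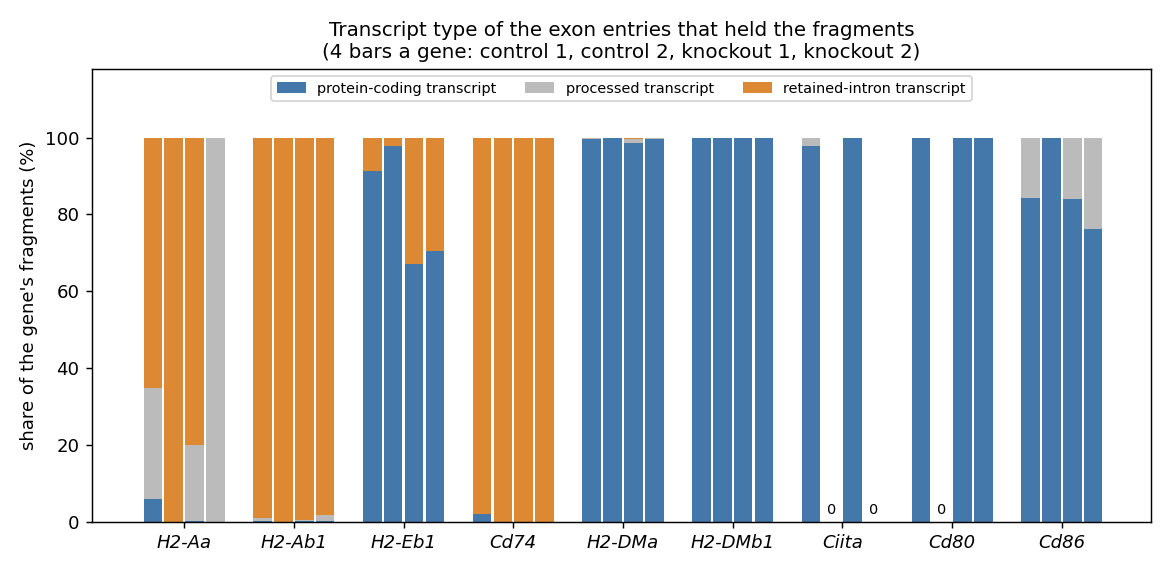
Share of each gene's fragments (%, y axis) by the GENCODE transcript type of the exon entry that held them, with 4 bars per gene in the order control 1, control 2, knockout 1, knockout 2, and 0 where a library had no fragment. H2-Ab1 and Cd74 are almost wholly retained-intron entries, whereas H2-DMa, H2-DMb1, Ciita and Cd80 are almost wholly entries of protein-coding transcripts.

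None of the 9 members differed between the genotypes by the test. For 8 of them, all but Cd86, control 1 and knockout 1 both had higher CPM than control 2 and knockout 2. How many of all tested genes share this order was not counted, so it cannot be called particular to the members. All 9 passed the filter on low counts, and 0 had an adjusted p under 0.05 (edgeR's quasi-likelihood test, Benjamini-Hochberg over 12434 genes; background 0%). In edgeR 0 members had an unadjusted p under 0.05, against 1.5% of all genes. DESeq2 and limma-voom also called 0 of them, and limma-voom gave Cd86 alone an unadjusted p under 0.05. DESeq2 called 0.137% of all genes. Knockout 1 was the highest library for 7 members and control 1 for the other 2, H2-Ab1 and H2-DMa. Control 2 was the lowest for 7 members, counting a shared 0 in Ciita. These counts of highest and lowest libraries were not made over all tested genes either. The log2 fold change of knockout over control was positive for 8 of the 9, against 56.9% of all tested genes, and its median was 0.26 against 0.20 over all genes. That median was -0.26 without control 2, -0.78 without knockout 1, 1.11 without knockout 2 and 1.96 without control 1. In bulk libraries such as these, fewer cells of a presenting type and less RNA per cell cannot be told apart. With 2 libraries against 2, no exact permutation test of a single value can go below p = 0.333 (two-sided).

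**Figure D2:**
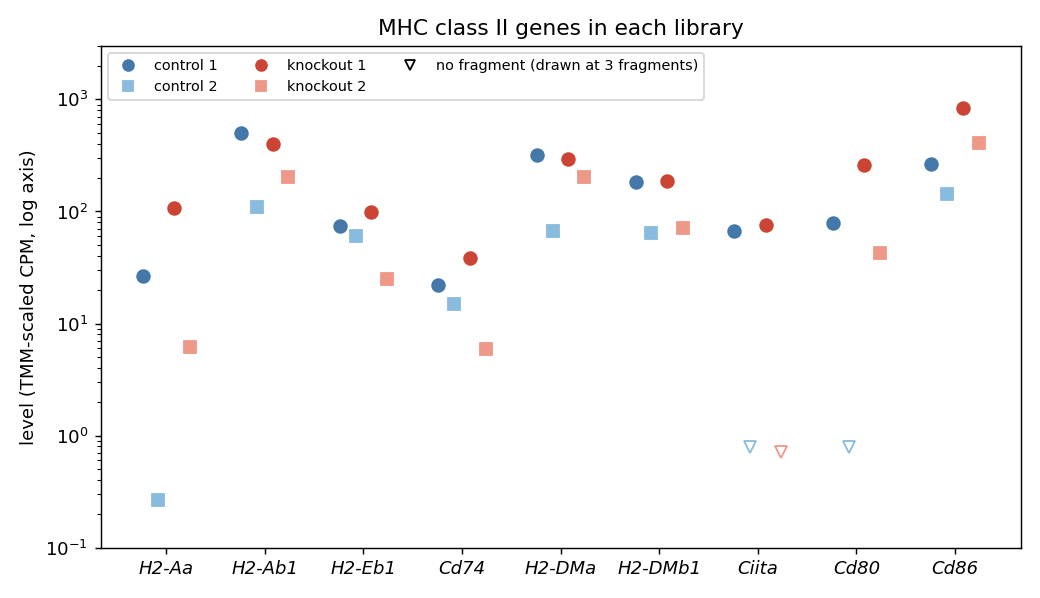
Level of each member (TMM-scaled CPM, log axis) in each library, controls in blue and knockouts in red, with open triangles drawn at the value of 3 fragments where a library had none. Only for Cd86 do both knockout libraries lie above both controls, and for the other 8 members the genotypes overlap.

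H2-Ab1, the beta chain of the I-A molecule (ENSMUSG00000073421, GRCm38 chromosome 17, 34257689 to 34269419, plus strand), was the antigen-binding chain with the most fragments. The 4 libraries held 2274, 413, 1615 and 861 fragments of it, or 496, 109.0, 403 and 203.5 CPM. Both knockouts lay between the 2 controls. The control mean was 302.7 ± 273.9 CPM and the knockout mean 303.3 ± 141.1 (SD, n = 2 each). On the log2 scale the fitted difference was 0.0028, with a standard error of 0.88 (adjusted p = 0.9997 by edgeR). It was -0.72 without control 2, -0.57 without knockout 1 and 1.54 without control 1. A single retained-intron entry at 34267336 to 34268156 held 88.7% of its fragments (1978, 413, 1375 and 814). In control 2 it held every fragment of the gene, while control 1 and knockout 1 also had 230 and 217 fragments in another retained-intron entry (34264761 to 34265387), where knockout 2 had 11 and control 2 had 0.

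H2-Aa, the alpha chain that pairs with H2-Ab1 (ENSMUSG00000036594, chromosome 17, 34282744 to 34287823, minus strand), varied more than its partner. Its fragments numbered 121, 1, 431 and 26, or 26.4, 0.264, 107.6 and 6.15 CPM. Knockout 1 was highest and knockout 2 lay between the controls, so the groups overlapped. A log2 fold change of 2.09 was fitted, with a larger standard error of 2.21 (adjusted p = 0.9997 by edgeR), and it was -1.13 without knockout 1 and 1.10 without control 2. The retained-intron entry at 34284288 to 34286972 had 79, 1, 345 and 0 fragments. All 26 fragments of knockout 2 lay in the entry of a noncoding transcript at 34283772 to 34284090, which had 35 in control 1, 0 in control 2 and 85 in knockout 1. The count of H2-Ab1 over that of H2-Aa was 18.8, 413.0, 3.75 and 33.1, so in these entries the counts of the paired chains did not keep a fixed ratio.

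H2-Eb1, the beta chain of the I-E molecule (ENSMUSG00000060586, chromosome 17, 34305867 to 34316674, plus strand), had 337, 229, 394 and 105 fragments. These are 73.6, 60.4, 98.3 and 24.8 CPM. The controls were close to each other, with knockout 1 above and knockout 2 below both. Between genotypes the log2 fold change was -0.12 (standard error 0.99, adjusted p = 0.9997 by edgeR), and it was 0.62 without knockout 2, 0.10 without control 1 and -0.26 without control 2. Its entries differed in direction. The last exon (34315874 to 34316674), in a protein-coding transcript, had 252, 224, 143 and 63 fragments, with both knockouts below both controls on the CPM scale (55.0 and 59.1 against 35.7 and 14.9). That order was found in 11.2% of tested genes, and it was not tested for exon entries. The retained-intron entry at 34314170 to 34314583 had 22, 0, 122 and 22 fragments, with both knockouts above both controls as CPM. The coding entry at 34314916 to 34315153 had 56, 0, 121 and 11, where the genotypes overlapped. The alpha chain of I-E, entered in the tables as H2-Ea-ps, had 0 fragments in all 4 libraries in 349 countable bases.

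Cd74, the invariant chain (ENSMUSG00000024610, chromosome 18, 60803848 to 60812652, plus strand), is among the most abundant messenger RNAs of presenting cells, yet few of its bases could be counted. The libraries held 102, 57, 155 and 25 fragments, or 22.3, 15.0, 38.7 and 5.91 CPM. As for H2-Eb1, knockout 1 was above both controls and knockout 2 below them. Its log2 fold change of 0.26 had a standard error of 1.43 (adjusted p = 0.9997 by edgeR), and was -0.0041 without control 2 and -1.62 without knockout 1. The fragments came from retained-intron entries at 60809028 to 60809253 (60, 0, 88 and 10 fragments) and 60810328 to 60810518 (40, 57, 67 and 15). Control 2 had fragments in only the second of these entries, and the other libraries in both. Without retained-intron entries Cd74 had too few fragments to be tested.

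The peptide-loading chains had nearly all of their fragments in entries of protein-coding transcripts. H2-DMa (ENSMUSG00000037649, chromosome 17, 34119541 to 34139101, plus strand) had 1469, 253, 1169 and 866 fragments, or 320.7, 66.8, 292 and 205 CPM. H2-DMb1 (ENSMUSG00000079547, chromosome 17, 34153072 to 34160230, plus strand) had 842, 243, 748 and 303, or 183.8, 64.1, 186.7 and 71.6 CPM. For both genes control 1 and knockout 1 were close, with knockout 1 over control 1 at 0.91 for H2-DMa and 1.02 for H2-DMb1, and control 2 was lowest. For H2-DMa the control mean was 193.7 ± 179.5 CPM and the knockout mean 248.2 ± 61.6, and for H2-DMb1 they were 124.0 ± 84.6 and 129.2 ± 81.4 (SD, n = 2 each). Their log2 fold changes were 0.36 (standard error 0.87) and 0.06 (standard error 0.88), both with an adjusted p of 0.9997 by edgeR. Without control 2 they were -0.38 and -0.52, and without control 1 1.96 and 1.08. The first exon of H2-DMb1 (34153072 to 34153453) held 87.8% of its fragments, and a single exon entry of H2-DMa (34137179 to 34139078) held 99.3%. Of the 1900 bases of that H2-DMa entry, the 1010 that could be counted lie in no other entry. The annotation thus counts them as exon in a single transcript model, and whether other H2-DMa transcripts hold them was not tested. Counting did not use strand, and Brd2 overlaps the upstream part of H2-DMa on the opposite strand, away from that entry. The copy H2-DMb2, which lies beside H2-DMb1 and encodes a closely similar chain, had 31, 0, 23 and 0 fragments. No header or label says how fragments that match both copies were treated, so the split between them is uncertain.

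Ciita, the coactivator of class II transcription (ENSMUSG00000022504, chromosome 16, 10480059 to 10528418, plus strand), split the libraries without regard to genotype. Its counts were 305, 0, 304 and 0, or 66.6 CPM in control 1 and 75.9 in knockout 1. A count of 0 allows up to 0.792 CPM in control 2 and 0.709 in knockout 2 (3 fragments, counting error only). By counting error alone, Ciita was thus at least 84.1-fold higher in control 1 than in control 2. On the same terms it was at least 107.0-fold higher in knockout 1 than in knockout 2. Of all 12434 genes tested, 4064 had no fragment in control 2 and 860 had none in knockout 2. The log2 fold change of Ciita, 0.19, had a standard error of 3.09 (adjusted p = 0.9997 by edgeR). It was -0.82 without control 2, and leaving out control 1 or knockout 1 moved it to 10.28 or -10.17, values that depend on the prior count because a genotype is then left with a library at 0. The last exon (10525764 to 10528418) held 94.9% of fragments, 291 in control 1 and 287 in knockout 1. Dexi lies over this part of Ciita on the opposite strand, so unspliced Dexi RNA and Ciita cannot be told apart by these unstranded counts, and Dexi itself had 58 fragments in all. Ciita is transcribed from several promoters that are used by different cell types. The first exon at 10480059 to 10480426 had 7 fragments in control 1 and 2 in knockout 1, and that at 10488178 to 10488424 had 7 and 0. The first of these belongs to a coding and the second to a noncoding transcript. The exon at 10490697 to 10492234, of a coding transcript, had 0 in control 1 and 15 in knockout 1. These are too few to compare promoters. The 2 libraries without a counted fragment of Ciita still had 861 and 413 fragments of H2-Ab1 and 866 and 253 of H2-DMa (knockout 2 and control 2).

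Cd86 was the member whose genotypes were separated. This ligand of Cd28 and Ctla4 (ENSMUSG00000022901, chromosome 16, 36603869 to 36666081, minus strand) had 1207, 540, 3349 and 1729 fragments, or 263, 142.5, 836 and 409 CPM. Both knockouts lay above both controls, an order held by 19.5% of tested genes, so 1 member of 9 with it is no more than that background. The control mean was 203.0 ± 85.5 CPM and the knockout mean 622.3 ± 302.0 (SD, n = 2 each), a ratio of 3.07. Its log2 fold change of 1.62 had a standard error of 0.66 (unadjusted p = 0.056, adjusted p = 0.9997 by edgeR), so it did not pass the threshold. It lay between 1.04 and 2.19 with 1 library left out, with the lowest value without knockout 1, and was 1.23 without control 2. The summed macrophage and monocyte markers, given further on, had both knockouts above both controls too, and their part in the level of Cd86 was not tested.

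The order of Cd86 was found along the whole gene and not in a single exon. Of its 8 entries with fragments, 7 had both knockouts above both controls on the CPM scale. Entries of a gene come from the same libraries and are not independent. The order was not tested for exon entries, and its share over all entries was not counted. Among the 7, the entry at 36620704 to 36621039 had 4, 2, 6 and 9 fragments, and that at 36642529 to 36642805 had 12, 0, 12 and 15. The last exon (36603869 to 36605338) had 578, 165, 1763 and 697 fragments. The coding exon at 36618330 to 36618626 had 279, 244, 729 and 405. In that exon the controls were nearly equal, at 60.9 and 64.4 CPM, against 182.0 and 95.7 in the knockouts. The exon that did not follow (36606531 to 36606571) is short and had 12 to 28 fragments per library. An exon of a noncoding transcript (36660774 to 36661614) had 179, 0, 521 and 398 fragments.

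**Figure D3:**
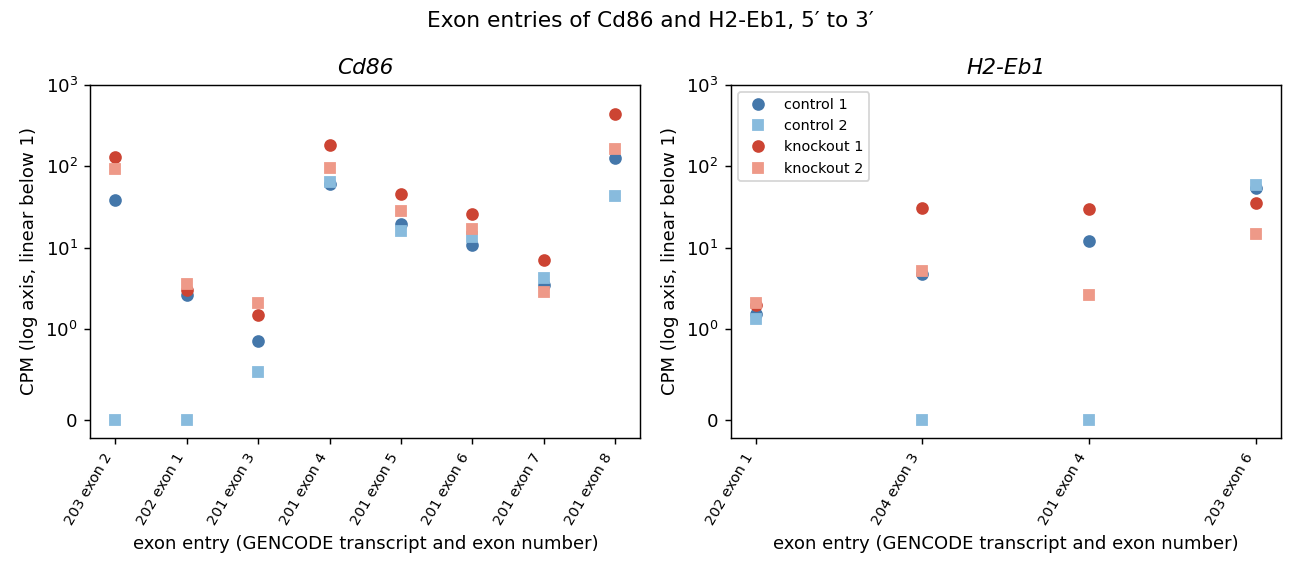
Level (CPM, log axis that is linear below 1) of the exon entries of Cd86 and H2-Eb1 that had at least 20 fragments in all, from the 5′ to the 3′ end of the gene, in each library. Both knockouts lie above both controls in 7 of the 8 Cd86 entries, while for H2-Eb1 they lie below the controls in the last exon alone.

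Cd80, the other Cd28 ligand (ENSMUSG00000075122, chromosome 16, 38455561 to 38496335, plus strand), had 362, 0, 1032 and 180 fragments. These are 79.0, 257.6 and 42.6 CPM in control 1, knockout 1 and knockout 2, with at most 0.792 in control 2 by the same limit. Knockout 1 was highest, but knockout 2 lay below control 1, so the groups overlapped. Its log2 fold change of 1.92 had a standard error of 2.32 (adjusted p = 0.9997 by edgeR). It was 0.92 without control 2 and 0.09 without knockout 1. Without control 1 it was 12.26, against a library at 0. By counting error alone, knockout 1 was at least 325.3-fold and knockout 2 at least 53.7-fold above control 2. The last exon (38494486 to 38496335) held 97.0% of its fragments.

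**Figure D4:**
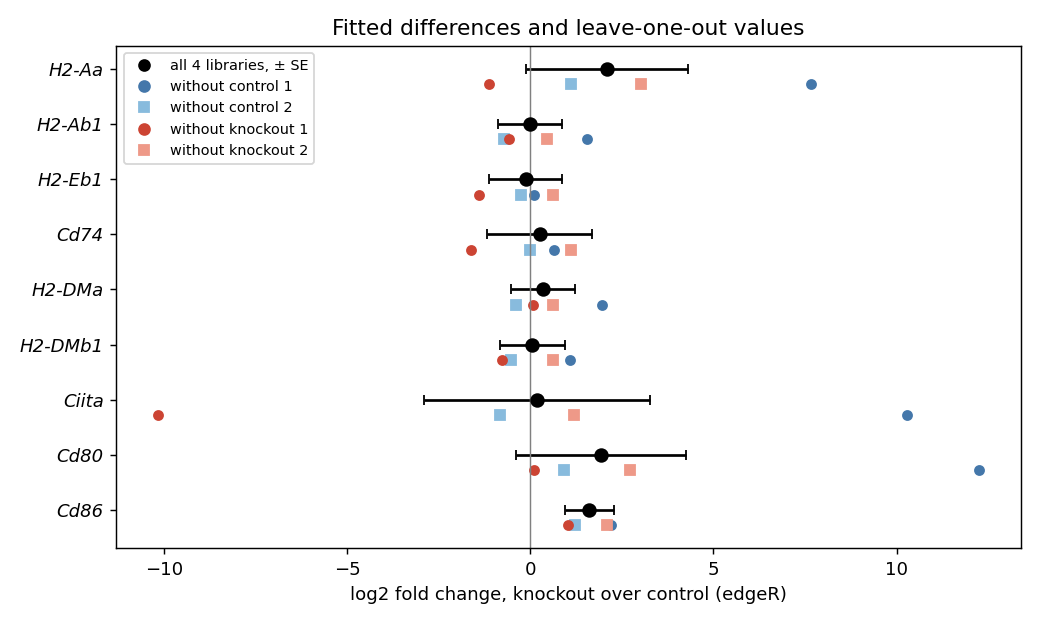
Fitted log2 fold change of knockout over control for each member (black, ± standard error, edgeR, 2 libraries per genotype) and the same value with each library left out (coloured). Cd86 stays between 1.04 and 2.19, Cd80 stays above 0, and each of the other members has values on both sides of 0. Values beyond 5 on either side are fits against a library with at most 1 fragment.

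The sum of Cd80 and Cd86 took a larger part of the members' fragments in the knockouts, and most of that sum was Cd86. Cd86 had 1207, 540, 3349 and 1729 fragments. Cd80 had 362, 0, 1032 and 180, and on its own it overlapped between the genotypes. Together they made up 22.4%, 31.1%, 47.6% and 46.6% of all fragments of the 9 genes, with both knockouts above both controls. The other 7 members summed to 1189.7, 316, 1202 and 517 CPM, where the genotypes overlapped. The count of Cd86 over that of these 7 genes was 0.221, 0.452, 0.695 and 0.791. Both knockouts were thus above both controls, as for Cd86 itself. Any ratio in this order gives p = 0.333 (two-sided exact permutation test, n = 2 each), so the p adds nothing to the order. How often such shares and ratios of other genes take this order was not counted. This ratio was chosen after the values were seen.

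Between genes, levels can be set side by side only per length, here as CPM per kilobase of countable sequence averaged over the 4 libraries. This is rough, since some genes were counted in introns and others in exons. Fragments could also reach beyond the countable bases, as for Ifi30 with 12 to 45 fragments per library in 1 such base. The countable length is therefore not the full length sampled. On that scale H2-Ab1 was highest at 216, followed by H2-DMa at 173, H2-DMb1 at 161 and Cd86 at 158. H2-Eb1 at 79.5 and Cd74 at 76.1 came next, then Cd80 at 37.4, H2-Aa at 13.0 and Ciita at 7.55. Over the libraries H2-Ab1 ranged from 77.6 to 353, H2-DMa from 52.2 to 251, H2-DMb1 from 81.4 to 237 and Cd86 from 54.7 to 321. H2-Eb1 ranged from 30.7 to 122, Cd74 from 22.0 to 144, Cd80 from 0 to 101.7, H2-Aa from 0.098 to 40.0 and Ciita from 0 to 16.1. Compared within each library, 7 of the 8 neighbouring pairs in this order changed places in at least 1 library. For Cd80 and H2-Aa that was control 2, by 1 fragment. The exception was Cd74, which lay above Cd80 in all 4 libraries.

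The wider class II pathway did not differ between the genotypes by the test either. Of 43 listed symbols 40 were in the tables, 36 had a fragment and 28 were tested, and 0 passed in either direction (edgeR; 1 had an unadjusted p under 0.05, and DESeq2 and limma-voom called 0). The median log2 fold change was 0.13, with 15 positive and 13 negative. Both knockouts lay above both controls for 6 of the 28 and below for 5, beside 19.5% and 11.2% of all tested genes. The median was -0.24 without control 2. Ctss and Jak2 had 0 fragments in every library with only 6 and 4 countable bases, so their counts say nothing about their levels.

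Among the enzymes of the lysosome 0 passed the test. All 6 tested had positive log2 fold changes, against 56.9% of all tested genes, with a median of 0.89 against 0.20. Both knockouts were above both controls for 4 of the 6, an order held by 19.5% of all tested genes. The difference between this group and the other groups was not tested. Ctsb, the protease cathepsin B, was at 4094, 2572, 6125 and 4742 CPM (log2 fold change 0.70, SE 0.50). Sppl2a, the protease that removes the last piece of the invariant chain from membranes, was at 212.0, 183.7, 457.0 and 301.6 CPM (log2 fold change 0.94, SE 0.56). Ctsl, cathepsin L, was at 24.7, 9.50, 50.4 and 43.3 CPM (log2 fold change 1.45, SE 1.13). For all 3 the knockouts were above the controls, as for the summed macrophage and monocyte markers, and none passed the threshold. Lgmn, the endopeptidase legumain, was at 31.9, 13.2, 90.6 and 23.6 CPM, where knockout 2 lay between the controls. Ifi30, a thiol reductase, had 12 to 45 fragments per library in 1 countable base.

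Factors upstream of class II showed no common direction. Nfyb, a subunit of the Y box factor NF-Y, varied little between libraries, at 47.6, 39.6, 55.2 and 44.7 CPM (log2 fold change 0.20, SE 0.90). Rfxap, a subunit of the X box complex, had 55, 0, 12 and 38 fragments, and Rfx5 had 0 in all libraries in 445 countable bases. Jak1, a kinase of the interferon gamma route, was at 884.9, 1073.8, 842 and 663.6 CPM (log2 fold change -0.38, SE 0.49), with the knockouts below the controls. Irf2, a factor that acts at the Ciita promoter, was at 9.39, 288.5, 9.23 and 4.73 CPM. Its log2 fold change of -4.41 (SE 1.74) had an unadjusted p of 0.0496 (adjusted p = 0.9997 by edgeR), and control 2 alone was high. Ifng, interferon gamma itself, had 30, 168, 119 and 0 fragments, and its CPM was highest in control 2.

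Partners of Cd80 and Cd86 on T cells and other ligands on presenting cells differed in the order of the libraries. Ctla4 was at 62.4, 16.4, 14.2 and 7.33 CPM (log2 fold change -1.87, SE 1.32). Icos, a related costimulatory receptor, was at 126.8, 52.3, 42.7 and 20.8 CPM (log2 fold change -1.50, SE 0.97). For both, the knockouts were below the controls. The median over the 10 T cell markers was -1.15 on the same scale, and their part in the levels of these receptors was not tested. Cd28 was at 33.0, 1.58, 18.0 and 4.73 CPM. Cd274, the inhibitory ligand PD-L1, was at 413.7, 66.3, 902.3 and 350.3 CPM (log2 fold change 1.38, SE 1.02), and its libraries ranked as those of Cd80. Cd40, through which T cells activate presenting cells, was at 5.44 to 12.5 CPM in all libraries. Lag3, an inhibitory receptor for class II, had 153, 43, 40 and 3 fragments (log2 fold change -2.06, SE 1.82).

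Markers of the cell types that carry class II were set beside the members. The 13 macrophage and monocyte markers summed to 21099.5, 10306, 33196 and 30171 CPM, with both knockouts above both controls as for Cd86. All 13 had fragments, Lyz2, the lysozyme of myeloid cells, was the highest, and 0 to 1 were at 0 in each library. Of these markers 12 were tested, and all 12 had a positive log2 fold change, against 56.9% of all tested genes. Their median was 1.52, beside 1.62 for Cd86. Both knockouts were above both controls for 10 of the 12, against 19.5% of all tested genes. Per fragment of these markers, Cd86 had 0.0125, 0.0138, 0.0252 and 0.0135 fragments, so on that ratio the genotypes overlapped. The 7 class II members had 0.0564, 0.0306, 0.0362 and 0.0171. The 10 dendritic cell markers summed to 1343, 233, 728 and 477 CPM, led by Ccr7, a receptor for migration to lymph nodes, with 6 of the 10 at 0 in control 2 and 1 to 2 in the others.

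Of 4 Langerhans cell markers, Epcam was at 0 everywhere, and the defining marker Cd207, the lectin langerin, named after its values were seen, had 1795, 504, 2256 and 778 fragments. The 8 B cell markers summed to 78.6, 4.49, 183.5 and 4.96 CPM, of which Ighm was the highest, Cd79b was at 0 in all libraries and 3 to 5 were at 0 in each. Control 1 and knockout 1 were the higher libraries, as for all members but Cd86. The 10 T cell markers, the labelled cell type, summed to 852.6, 259.2, 262.3 and 115.4 CPM, led by Trac, with 0 to 3 at 0 in each library. All 10 were tested and 0 had a positive log2 fold change, the median was -1.15, and 5 had both knockouts below both controls, against 11.2% of all tested genes. The 8 keratinocyte markers, led by Perp, reached 23529 CPM in control 2 against 1089 to 2382 elsewhere, and the 7 fibroblast markers, led by Mmp2, were at 2583 to 12029 CPM. The part of any of these cell types in the members' levels was not tested.

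**Figure D5:**
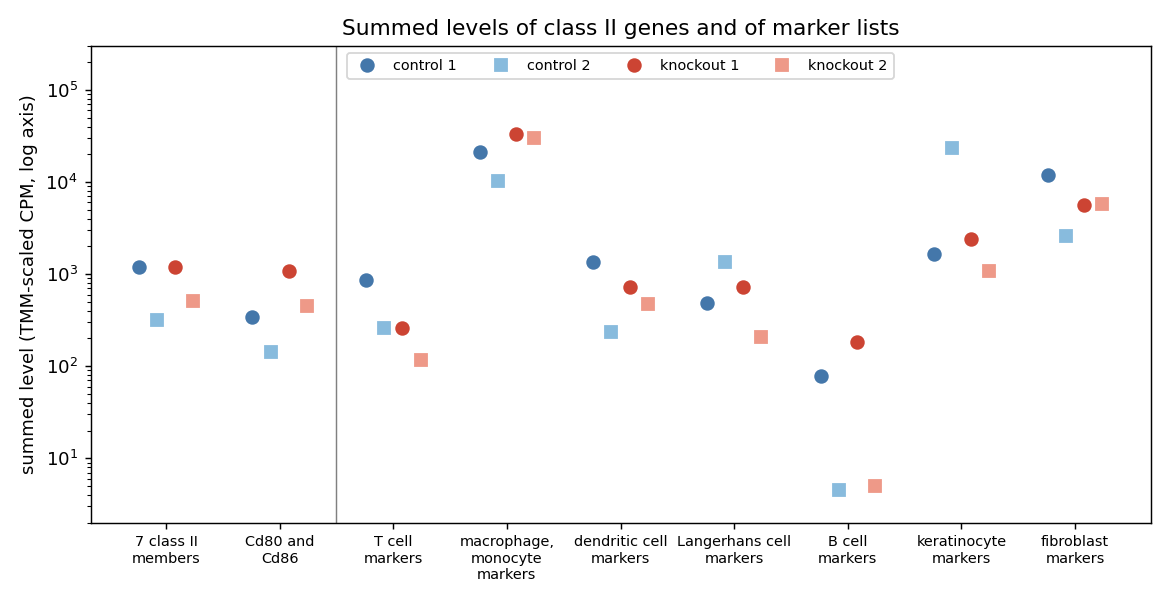
Summed level (TMM-scaled CPM, log axis) of the 7 class II members, of Cd80 with Cd86, and of each marker list, in each library. Both knockouts are above both controls for the sum of Cd80 and Cd86, though not for Cd80 alone, and for the macrophage and monocyte markers. The class II members overlap between the genotypes.

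Among 5215 genes with a mean of at least 20 CPM, the 5 with the pattern nearest to the mean of H2-Aa, H2-Ab1, H2-Eb1 and Cd74 over the 4 libraries were Fig4, Mob3b, Themis2, Ripk1 and Cmtm6. Likeness was the Euclidean distance between centred log2(CPM + 1) values, and ran from 0.219 for the nearest gene to 0.495 for Cmtm6. Themis2, a signalling adaptor of B cells and macrophages, was at 263.9, 60.4, 397.6 and 64.1 CPM. Of the other members, H2-DMb1 was nearest to that mean, at a distance of 0.827. The distance is a description over 4 libraries, each of which has its own depth and make-up in common for all genes.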

How the data were processed

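The deposited tables hold raw counts of read pairs for each annotated exon. The headers name featureCounts 2.0.1 and GENCODE M23. Per the file headers, the authors counted without strand, on GRCm38 alignments, and by exon entry, leaving out pairs that overlap several entries. Trimming was by Trim Galore 0.6.7 and alignment by STAR 2.7.9a, per the submitters' processing notes. Of 841606 entries, 64.8% share coordinates with another and all of those hold 0 fragments. Counts were summed per gene, and symbols matched 55154 identifiers. Transcript types came from GENCODE M21, in which 99.7% of the entries were found.

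Levels are TMM-scaled CPM. Genotypes were compared with edgeR 4.0.16 under R 4.3.3. Genes were kept by filterByExpr (minimum count 10) and tested by quasi-likelihood, without covariates, with Benjamini-Hochberg adjustment at 0.05 over all tested genes. DESeq2 1.42.0, limma-voom (limma 3.58.1), other scalings, no filter, removal of retained-intron entries and removal of each library were alternatives. The fit was also run on simulated counts, whose outcome is not given here and on which no result rests. Library numbers are names only, and no label pairs libraries. Every pair of libraries differed by more than sampling noise (the chi-square statistic divided by its degrees of freedom was 45.6 to 182.2). The labels do not say that libraries of a genotype came from separate animals, so p-values measure only the spread among them, which may be technical. Limits derived from a count of 0 cover counting error alone, since no molecular identifiers are described.

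The members, the pathway and marker lists, the motifs and the naming rule were chosen with earlier results of these data known. Named were all members, pathway genes by role, the highest gene of each marker list and the 5 genes nearest in pattern. Predicted genes, RIKEN clones, pseudogenes, small RNAs and immunoglobulin segments were left out of the last group. Some genes that this rule names are not reported here.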

Additional observations from a re-analysis of the deposited data

How the results depend on the processing

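In all 10 alternatives 0 of the 9 members and 0 of the pathway genes were called. The lowest adjusted p of a member was 0.055, for Cd80 without control 1, and that of a pathway gene was 0.054 in the same setting, in which the median of all 14440 genes tested moved to 1.72. With all libraries kept, DESeq2 called 17 of all 12434 genes tested and the fit without filter 27 of 24651. The other scalings, limma-voom and removal of retained-intron entries called 0 of all genes, so 0 members called does not set the members apart. The members' median log2 fold change lay between 0.12 and 0.42 under the other scalings, tools, filter and exon choices, and between -0.78 and 1.96 with 1 library left out. It was -0.26 without control 2, -0.78 without knockout 1, 1.11 without knockout 2 and 1.96 without control 1. The pathway median, 0.13 in the analysis reported, was -0.0293 without retained-intron exons and 0.81 with limma-voom, the lowest and highest under those choices, and lay between -0.51 and 2.00 with 1 library left out. Of 53 values for single members under the other settings 4 changed sign: H2-Ab1 (-0.11) and H2-DMb1 (-0.0606) with library totals, Cd74 (-0.33) and Ciita (-0.17) with limma-voom. With 1 library left out, 12 of 36 changed sign, and the values lay between -1.13 and 7.66 for H2-Aa, -0.72 and 1.54 for H2-Ab1, -1.39 and 0.62 for H2-Eb1, -1.62 and 1.11 for Cd74, -0.38 and 1.96 for H2-DMa, -0.78 and 1.08 for H2-DMb1, and -10.17 and 10.28 for Ciita. Cd80 (0.09 to 12.26) and Cd86 (1.04 to 2.19) kept their sign. A lone library in a genotype was assumed to vary like the others. No paired analysis was possible because the labels give no replicate number that libraries of both genotypes share. Apart from these constructions the cause was not tested.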
